A study of Pinus pinaster with 14 samples.

Results

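Root and shoot were compared inside one kind of tissue, the vascular tissue of young maritime pines (Pinus pinaster), a conifer of the western Mediterranean. The comparison used 5 of the 14 libraries of the series, chosen by their tissue labels: 2 from root organs, root vascular and developing root vascular tissue, against 3 from shoot organs, young needle, cotyledon and hypocotyl vascular tissue. Libraries of mesophyll and cortex were not used. Every library came from soil-grown seedlings of the Oria provenance, about 1 month old, and the labels name no treatment. The tissues were cut out of frozen sections by laser microdissection, which collects chosen cells under a microscope. RNA with an integrity number above 7 was then amplified as cDNA and read by pyrosequencing. Each tissue was 1 library, so the organs of a side stood in for replicates, and the labels do not say whether libraries share seedlings. The p-values below therefore rest on the spread between organs, pooled in part over transcripts, and may be too small.

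Vascular tissue carries water and minerals in xylem and sugars in phloem, and links roots to leaves. In the root it forms a central cylinder enclosed by an endodermis, and in pine needles it lies in the centre, surrounded by transfusion tissue. The hypocotyl is the stem segment where the root arrangement passes into that of the shoot. Roots load xylem with ions taken up from the soil, whereas leaf veins deliver water and collect photosynthate. A vascular section of either side holds several cell types, among them parenchyma, and the table gives transcript identifiers with no gene names. Marker genes of xylem, phloem, mesophyll or endodermis could thus not be looked up, and the vascular label of each library was not checked against markers.

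The libraries held 1536389 reads in root, 684928 in developing root, 850625 in young needle, 844745 in cotyledon and 746901 in hypocotyl vascular tissue. Levels are normalised read counts as deposited, not divided by transcript length, so they are compared between libraries and not between transcripts. In bulk libraries of this kind, fewer cells expressing a transcript and less RNA per cell cannot be told apart. The root vascular library was the most uneven of the 5, with 27.0% of its reads in its 10 most abundant transcripts, against 10.2% in developing root, 14.8% in hypocotyl, 11.4% in cotyledon and 4.99% in young needle vascular tissue. The 95% Wilson intervals of these shares are at most 0.161 percentage points wide. Its scaling factor was also the lowest, 0.460, while those of the other 4 ran from 1.20 to 1.53. Young needle and hypocotyl vascular tissue overlapped closely, and some other pairs came near to that in a single direction. All 878 transcripts with at least 200 reads in young needle vascular tissue also had reads in the hypocotyl, 36 or more each. Of the same 878, 136 lacked reads in cotyledon, 90 in root and 67 in developing root vascular tissue. Of the 506 at that level in the hypocotyl, 2 lacked reads in young needle, 6 in cotyledon, 23 in root and 70 in developing root. Developing root vascular tissue had 597 at that level. Of those, 4 lacked reads in root, 28 in hypocotyl, 33 in young needle and 79 in cotyledon. Whether reads were carried between the young needle and hypocotyl libraries was not tested. The calls and several of the counts below are also given without young needle and without hypocotyl vascular tissue.

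Of the 23493 transcripts in the table, 4936 had reads in all 5 vascular libraries. Both root libraries and no shoot library held reads of 900 transcripts, and all 3 shoot libraries and no root library held reads of 515. Asking for at least 10 reads in each library of the side that held them left 154 for root and 183 for shoot. Without hypocotyl vascular tissue the counts with reads were 1892 for root and 572 for shoot, and those at 10 reads 369 and 220. Without young needle vascular tissue they were 1015 for root and 815 for shoot, and 168 and 315 at 10 reads. Leaving out cotyledon vascular tissue gave 1083 for root and 1500 for shoot. With 1 root library in place of both, 1872 (developing root) and 1946 (root) had reads there and in no shoot library. Reads in all 3 shoot libraries and not in the root library kept then belonged to 1076 transcripts with developing root and 1305 with root. With all 5 libraries, each thinned to 684928 reads, the counts at 10 reads became 127 for root and 197 for shoot. Detection ran from 14309 transcripts in developing root and 12846 in root vascular tissue to 15682 in hypocotyl, 11913 in young needle and 9626 in cotyledon vascular tissue. At the common depth the root vascular count was 11192 and the cotyledon count 9419.

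The vascular libraries of one side were more alike on average than those of different sides, but the pairs varied widely. Over 10402 transcripts at 10 or more in at least 2 of the 5 libraries, the Spearman correlation averaged 0.404 over the 4 pairs of the same side. It averaged 0.191 over the 6 pairs of a root with a shoot library. Root and developing root vascular tissue correlated at 0.446. In the shoot, hypocotyl correlated at 0.642 with young needle and at 0.374 with cotyledon vascular tissue, whereas the leaf pair, young needle and cotyledon, correlated at 0.156. Leaf vascular tissue was thus less alike between its own organs than root vascular tissue was with the hypocotyl, at 0.231 for root and 0.263 for developing root. Root with young needle vascular tissue gave the lowest value, 0.0330. The difference between the averages was 0.213, and with 1 library left out it ran from 0.109 without root to 0.383 without cotyledon vascular tissue. These correlations run across transcripts of the same few libraries, which differ in depth and evenness, and serve as a description.

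**Figure D1:**
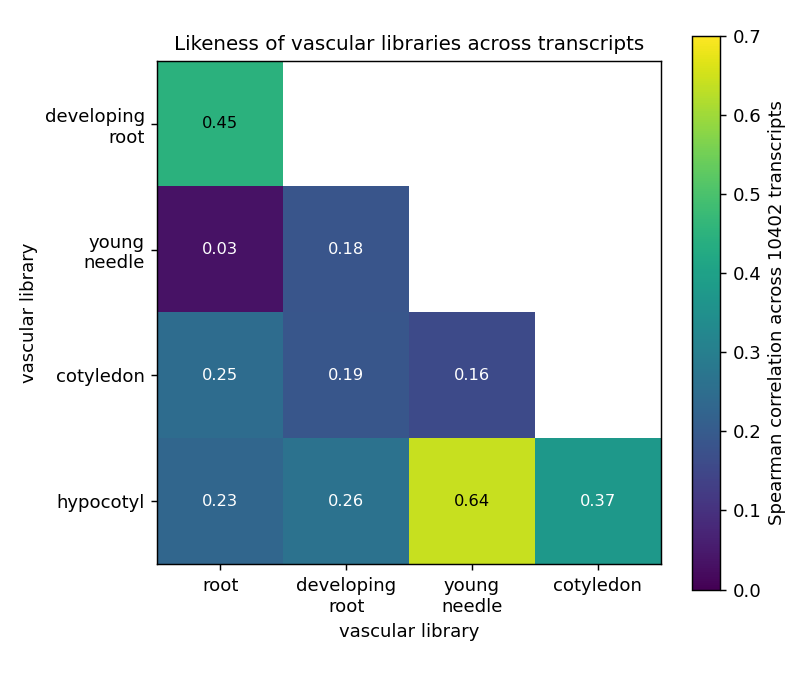
Spearman correlation across 10402 transcripts for each of the 10 pairs of vascular libraries, with the value printed in each cell. The hypocotyl and young needle pair is the highest at 0.642, root with developing root follows at 0.446, and root with young needle is the lowest at 0.0330.

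Few transcripts separated root from shoot vascular tissue beyond the spread between organs. On log2(value + 5), limma called 25 of 10402 transcripts (0.240%) at a Benjamini-Hochberg adjusted p under 0.05. Of these, 10 were higher in root (0.0961%) and 15 lower (0.144%). Changes were large: the median absolute log2 fold change was 7.28 among the higher and 6.49 among the lower transcripts, and the smallest was 5.98. The last transcript called stood at an adjusted p of 0.049996 and the first not called at 0.0516. The median standard error over all transcripts tested was 1.28, and 35 transcripts reached an absolute log2 fold change of 5.98 or more. All 10 higher and all 15 lower transcripts had groups that did not overlap. At changes of this size the call itself makes that nearly certain, so it adds no support. Over all transcripts tested the groups did not overlap for 1450 with root above shoot (13.9%) and for 1393 with root below (13.4%).

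**Figure D2:**
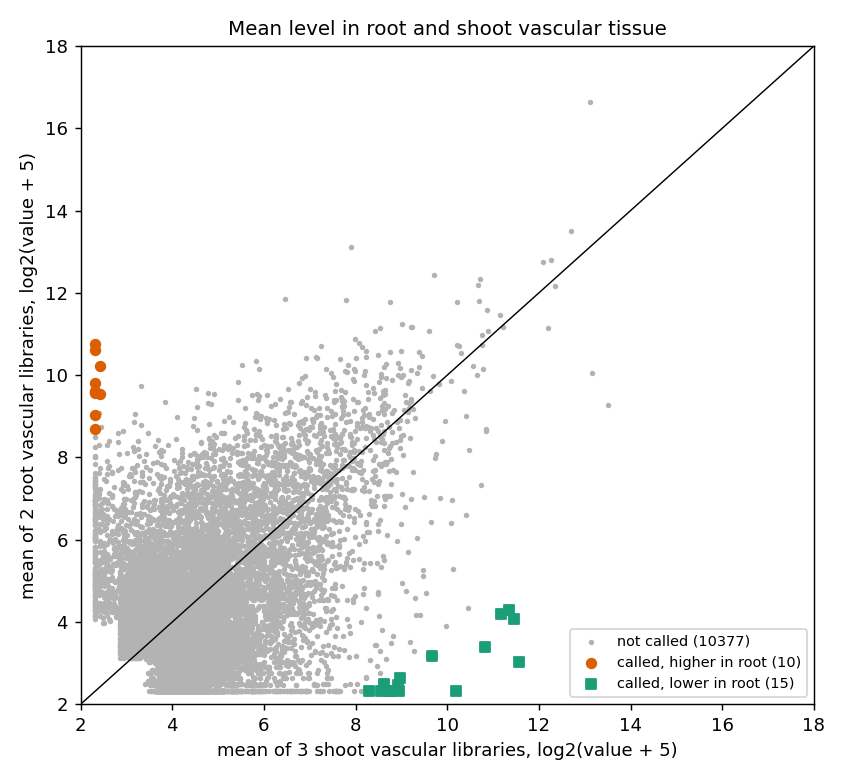
Mean log2(value + 5) of the 2 root vascular libraries (vertical axis) against that of the 3 shoot vascular libraries (horizontal axis), 1 point per transcript tested; the line marks equal means. The 10 transcripts called higher in root (circles) lie at or just above the lower limit of the shoot axis, and the 15 called lower (squares) lie near the lower limit of the root axis.

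These calls rested on all 3 shoot libraries being in the fit. The count was 0 without young needle (lowest limma adjusted p = 0.253), 0 without cotyledon (0.0852) and 0 without hypocotyl vascular tissue (0.325). At an unadjusted p under 0.05 there were 1047, 2394 and 1078 transcripts in those fits, in that order of omission, and 1207 with all 5 libraries. Averaging young needle and hypocotyl vascular tissue as 1 library, an alternative added after the data were seen, also gave 0 (lowest limma adjusted p = 0.349; unadjusted, 1052 transcripts fell under 0.05). Without root vascular tissue 137 were called (10 higher, 127 lower), and without developing root vascular tissue 523 (380 higher, 143 lower). In those 2 fits the spread came from the shoot alone and the lone root library was assumed to vary like it. The variance of each transcript was there taken wholly from the trend over transcripts. The filter then asks for 10 or more in a shoot library too, so none of the 10 transcripts higher with all 5 libraries could be tested. The 15 lower ones were all called in both fits, and the transcripts called higher there are other transcripts. Run on the reads recovered from the values, the quasi-likelihood test of edgeR called 10, all higher in root (0.0961%), of which 9 were among the 25. DESeq2 called 677, 300 higher and 377 lower, and these held all 25. That is 6.51% of the 10402, or 9.18% of the 7373 to which DESeq2 gave an adjusted p. Scaling to the library total gave 17 higher and 67 lower, and scaling without the 10 most abundant transcripts of each library gave 11 higher and 48 lower. The median log2 fold change over all transcripts tested was -0.16 as deposited, -0.58 with scaling to the library total and -0.53 without the most abundant transcripts, so those splits are relative to a lower centre.

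Transcripts higher in root vascular tissue were on at moderate to high levels in both root libraries and next to absent from the shoot vascular libraries. Over the 10, values ran from 450 to 2214 in root and from 248 to 5427 in developing root vascular tissue. In the shoot none had a read in young needle or cotyledon vascular tissue, and the highest hypocotyl value was 1.12, which is 1 read. For 8 of the 10 no shoot vascular library held a read. The root libraries did not rank alike: 5 of the 10 were higher in root and 5 in developing root vascular tissue, and the higher root library exceeded the lower by a median of 3.03 times, from 1.02 to 12.0 times.

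isotig54681 had the widest clear space between the groups and was nearly level between the root libraries. It stood at 768 in root and 756 in developing root vascular tissue (542 and 730 reads), and had no reads in young needle, cotyledon or hypocotyl vascular tissue. The root libraries lie close together and far above the shoot, with no overlap. Its mean of 762 ± 8.42 (SD, n = 2) in root was at least 276-fold higher than in shoot, taking 3 reads in each shoot library as the limit. limma gave a log2 fold change of 7.26 ± 1.21 SE (adjusted p = 0.0208).

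unigene134 ranked second by the same measure and was higher in the younger root. It stood at 613 in root and 1296 in developing root vascular tissue (433 and 1252 reads), against no reads in any of the 3 shoot vascular libraries. The groups do not overlap, and developing root is the higher of the root pair. Its mean of 955 ± 483 (SD, n = 2) in root was at least 346-fold higher than in shoot, and leaving out the developing root lowered that limit to 222-fold. limma gave a log2 fold change of 7.49 ± 1.22 SE (adjusted p = 0.0203). For both transcripts the call was lost without any 1 of the shoot libraries (limma adjusted p = 0.253 without young needle, 0.0852 without cotyledon, 0.325 without hypocotyl) and with 1 added before the logarithm (0.0714). Leaving out a shoot library did not change the log2 fold change, 7.26 for isotig54681 and 7.49 for unigene134, since every shoot value was 0. Over all alternatives the adjusted p ran from 8.25e-07 to 0.349 for isotig54681 and from 7.67e-07 to 0.349 for unigene134.

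Transcripts lower in root vascular tissue were shared by needle, cotyledon and hypocotyl at very different levels. Over the 15, values ran from 0 to 42.5 in root and from 0 to 8.28 in developing root vascular tissue, and for 6 of them neither root library held a read. In the shoot they ran from 110 to 1858 in young needle, from 209 to 8154 in cotyledon and from 221 to 10469 in hypocotyl vascular tissue. Hypocotyl was the highest shoot library for 8, cotyledon for 6 and young needle for 1. The highest shoot library exceeded the lowest by a median of 5.68 times, from 2.04 to 13.5 times. Of the 15, 4 had one profile in common, singled out after their values were seen. They stood at 17.0 to 42.5 in root and at most 3.11 in developing root, against 488 to 940 in young needle, 1685 to 2277 in cotyledon and 6585 to 10469 in hypocotyl vascular tissue. Outside the vascular libraries they were less alike, at 5.32 to 222 in the apical meristem and 0.709 to 211 in emerging needles. isotig03092 was the lowest of the 4 in both. The files do not say whether these 4 are parts or copies of one gene, and reads can be split between near-identical transcripts, so they may not be separate results.

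**Figure D3:**
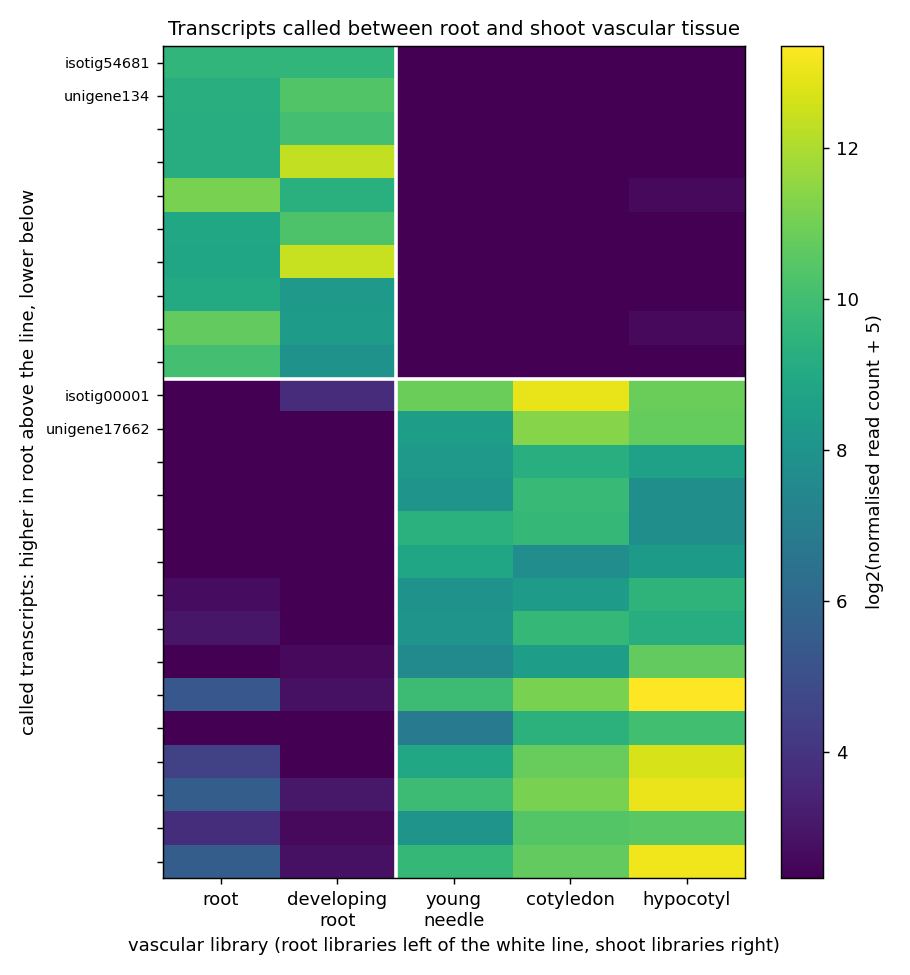
Log2(normalised read count + 5) of the 25 called transcripts (rows) in the 5 vascular libraries (columns), ordered in each direction by the space between the groups; the 4 named transcripts are labelled. The 10 transcripts in the upper block stay at or near the floor in all 3 shoot libraries, and in the lower block the root library reaches 42.5 at most.

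isotig00001 had the smallest adjusted p of the comparison. It had no reads in root and stood at 8.28 in developing root vascular tissue (8 reads), against 1858 in young needle, 8154 in cotyledon and 1862 in hypocotyl vascular tissue. Cotyledon is the highest, the other shoot libraries are nearly level, and the groups do not overlap. It averaged 4.14 ± 5.86 in root (SD, n = 2), against 3958 ± 3634 in shoot (SD, n = 3), a 956-fold ratio of the means, which was 449-fold without cotyledon and 478-fold without root vascular tissue. limma gave a log2 fold change of -8.55 ± 1.07 SE (adjusted p = 0.00732).

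unigene17662 had no reads in either root vascular library and stood at 357 in young needle, 2577 in cotyledon and 1724 in hypocotyl vascular tissue. Young needle is the lowest of the shoot libraries and still lies far above the root. In root it was at least 422-fold lower than its shoot mean of 1553 ± 1120 (SD, n = 3), with 3 reads in each root library as the limit. limma gave a log2 fold change of -7.87 ± 1.16 SE (adjusted p = 0.0203). For isotig00001 and unigene17662 the call was lost without any 1 of the shoot libraries, with the same adjusted p-values as above, and with 1 added before the logarithm (limma adjusted p = 0.0531 for both). With edgeR the adjusted p was 0.0697 for isotig00001 and 0.0502 for unigene17662. Over all alternatives it ran from 5.85e-18 to 0.349 for isotig00001 and from 1.93e-13 to 0.349 for unigene17662. The lowest values belong to the fits with 1 root library.

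A rule of size, with no test, gave the patterns behind these calls. A library was counted as high when its value + 5 reached 4 times or more the value + 5 of every library on the other side. Both root libraries were high for 255 of the 23493 transcripts (1.09%), and all 3 shoot libraries for 303 (1.29%). The root set held 5.56% of root reads (95% Wilson interval 5.52 to 5.59%) and 7.68% of developing root reads (7.62 to 7.74%). In the shoot the same transcripts held 0.239% of young needle (0.229 to 0.250%), 0.211% of cotyledon (0.202 to 0.221%) and 0.357% of hypocotyl vascular reads (0.344 to 0.371%). The shoot set held 0.0619% of root (0.0581 to 0.0660%) and 0.114% of developing root reads (0.106 to 0.122%), against 6.58% of young needle (6.53 to 6.63%), 10.3% of cotyledon (10.2 to 10.4%) and 11.3% of hypocotyl vascular reads (11.2 to 11.4%). Such intervals speak of counting error alone, since reads of amplified cDNA can copy the same molecule. Without hypocotyl vascular tissue the root set had 464 transcripts, and without young needle 297. The shoot set had 432 without hypocotyl, 489 without young needle and 931 without cotyledon vascular tissue. It had 555 without root and 696 without developing root vascular tissue.

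Root and developing root vascular tissue shared part of what set each apart from the shoot. Root was high against all 3 shoot libraries for 2539 transcripts (10.8%) and developing root for 1069 (4.55%). The 255 in common made up 10.0% of the root set and 23.9% of the developing root set. A further 313 were high in root with developing root at 2 to 4 times the highest shoot library, and 157 the other way round. Without hypocotyl vascular tissue the sets were 3008 for root and 1715 for developing root, and without young needle 2715 and 1268. Scaled to library totals they were 1365 and 1383. For 1971 transcripts (8.39%) root was high while developing root stayed under 2 times the highest shoot library, and for 657 (2.80%) the reverse held. This order depended on the scaling: with libraries scaled to their totals there were 970 for root alone and 1046 for developing root alone. As deposited, root alone had 2125 without hypocotyl and 2054 without young needle vascular tissue, and developing root alone had 936 and 783. The root-alone transcripts held 57.5% of root vascular reads (57.4 to 57.6%), among them the most abundant transcript of that library with 14.9% (14.8 to 14.9%). They also held 9.60% of developing root (9.53 to 9.67%), 5.48% of young needle (5.43 to 5.53%), 6.74% of cotyledon (6.68 to 6.79%) and 8.70% of hypocotyl vascular reads (8.64 to 8.77%). By the widest space to the other libraries, isotig57271 led the root-alone pattern at 4843 (3419 reads), with no reads in the other 4 vascular libraries. For developing root alone the leading transcript was isotig45298 at 241 (233 reads), also with no reads in the other 4.

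In the shoot, most transcripts that were high against root passed the 4-fold line in 1 organ only, though other organs may have fallen just short of it. Young needle was high against both root libraries for 2200 transcripts (9.36%), cotyledon for 2007 (8.54%) and hypocotyl for 1673 (7.12%). Counted together, 3085 were high in 1 shoot library, 943 in 2 and 303 in all 3. With 1 added in place of 5 these were 3021, 1989 and 592. Of the 943 with 5 added, 628 joined young needle with hypocotyl, 186 cotyledon with hypocotyl and 129 young needle with cotyledon. Without developing root vascular tissue young needle was high for 3742, hypocotyl for 3257, and 1928 were high in 2 shoot libraries. With young needle vascular tissue left out, 2702 were high in 1 shoot library and 489 in 2. These counts were 3343 and 432 with hypocotyl left out instead. Young needle with hypocotyl is the pair in which every transcript with at least 200 reads in young needle also had reads in the hypocotyl. The part of that overlap in the 628 was not tested. Leaf vascular tissue alone, with the hypocotyl under 2 times the root, accounted for 29 transcripts (0.123%), led by isotig45878. It had 1.42 in root (1 read) and none in developing root, against 55.9 in young needle, 181 in cotyledon and 5.58 in hypocotyl vascular tissue. Hypocotyl alone accounted for 405 (1.72%), led by isotig31800, which had 2.83 in root and 4.14 in developing root, against 308 in the hypocotyl and no reads in needle or cotyledon vascular tissue. The hypocotyl-alone count was 637 without developing root vascular tissue. For 69 transcripts (0.294%) both root libraries and the hypocotyl were high against both leaf libraries, and for 4 (0.0170%) the reverse held. Those 69 became 624 without young needle, 189 without cotyledon, 205 without root and 166 without developing root vascular tissue, and the 4 became 1228, 62, 5 and 8 in the same order.

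**Figure D4:**
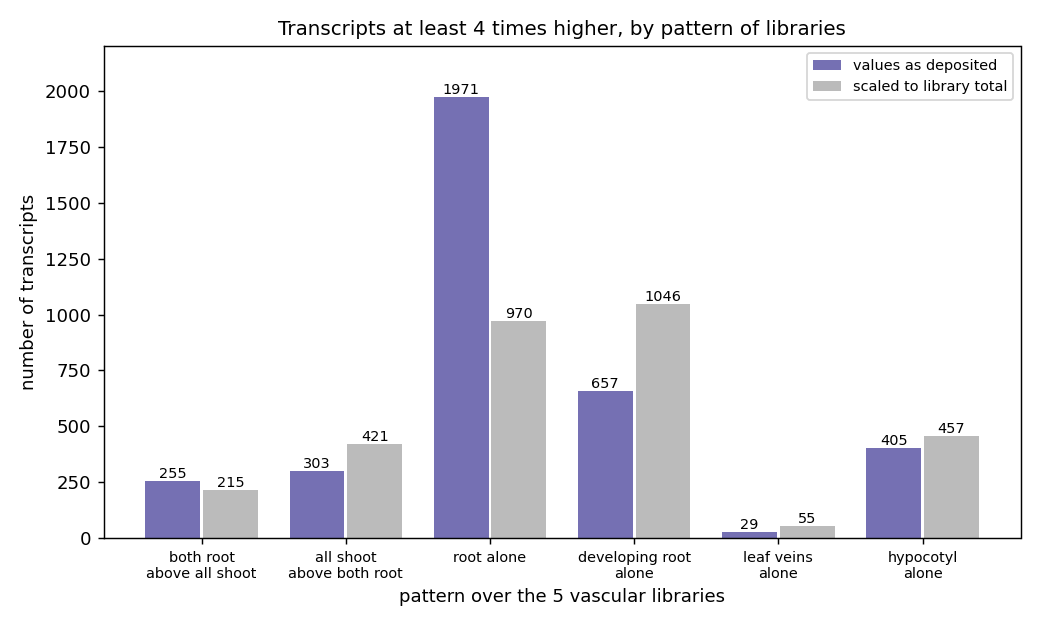
Number of transcripts (vertical axis) in each pattern of at least 4-fold higher value + 5 over the 5 vascular libraries, with values as deposited (left bars) and scaled to library totals (right bars). Root alone has 1971 as deposited and 970 scaled to totals, developing root alone 657 and 1046, so their order turns.

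The root meristem and apical meristem libraries, which were not in the fit, carried the called transcripts on the same side in most cases. All 10 transcripts higher in root vascular tissue were at least 2 times higher in the root meristem than in the apical meristem (value + 5), where 21.0% of all transcripts tested were. With 25 added in place of 5, 8 of the 10 were. The 10 ran from 17.6 to 1183 with a median of 206 in the root meristem, against 0 to 58.5 with a median of 3.99 in the apical meristem. isotig54681 stood at 269 in the root meristem and 9.30 in the apical meristem, and unigene134 at 58.7 and 1.33 in the same order. Of the 15 transcripts lower in root vascular tissue, 9 were at least 2 times higher in the apical meristem, where 20.8% of all transcripts tested were, and none was 2 times higher in the root meristem. The 9 became 6 with 25 added and 8 with scaling to library totals. Shares over all transcripts tested are not given for these other settings. Of these 15, 11 had no reads in the root meristem, where the highest value was 4.56. In the apical meristem 5 had no reads and the highest value was 222. Among all 10402 tested, reads were missing for 1740 in the root and for 1335 in the apical meristem. Both are smaller shares than among the 15, so absence was more frequent among the 15 in the apical meristem too. Emerging needles, a further shoot library, held reads of 12 of the 15, at up to 638, and none of the other 3. Over all 10402 tested, 1644 had no reads in emerging needles, so reads there do not mark out the 15. Of the 10 higher in root vascular tissue, 4 had no reads in emerging needles, where the highest value was 27.6, and 2 had none in the apical meristem.

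**Figure D5:**
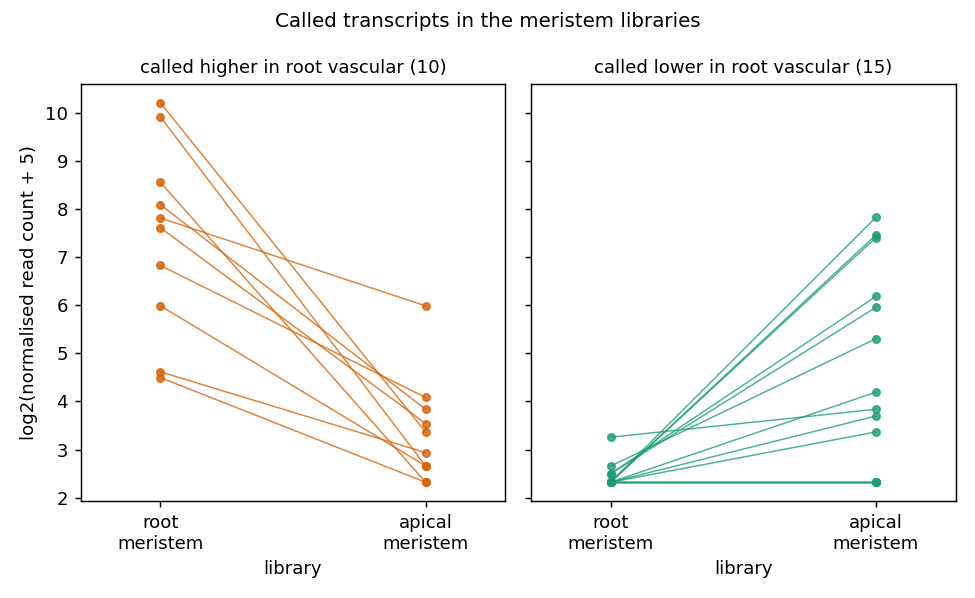
Log2(normalised read count + 5) of the called transcripts in the root meristem and the apical meristem, 1 line per transcript, for the 10 called higher (left panel) and the 15 called lower (right panel) in root vascular tissue. All 10 lines of the left panel fall towards the apical meristem, and in the right panel no root meristem value exceeds 4.56.

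The root meristem library was not free of overlap with the developing root. Developing root vascular tissue had 597 transcripts at 200 reads or more, and 6 of these lacked reads in the root meristem and 4 in root vascular tissue. The root meristem had 1056 at that level, and 1 of these lacked reads in developing root vascular tissue. Of the same 1056, 90 lacked reads in root vascular tissue. Shared reads and shared expression at the root tip cannot be told apart here. Each meristem was 1 library, so their difference has no replicate check.

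The same reading of the meristems over the larger sets gave the following shares, beside those of the whole table of 23493. There 14.4% were at least 2 times higher in the root meristem and 23.5% in the apical meristem, with a median log2 difference of 0. All of the 255 and the 303 below were among the 10402 tested, where these shares were 21.0% and 20.8%. Of root alone 791 were tested, and of developing root alone 109. Of the 255 transcripts high in both root libraries, 107 (42.0%) were at least 2 times higher in the root meristem and 17 (6.67%) in the apical meristem. Of the 303 high in all shoot libraries, 14 (4.62%) were 2 times higher in the root meristem and 118 (38.9%) in the apical meristem. Of the 1971 of root alone, 193 (9.79%) were higher in the root meristem and 492 (25.0%) in the apical meristem, a share for the apical meristem near that of the whole table. The 657 of developing root alone had 287 (43.7%) higher in the root meristem and 33 (5.02%) in the apical meristem. The median log2 difference, root meristem minus apical meristem, was 0.72 for the 255, -0.56 for the 303, -0.06 for root alone and 0.82 for developing root alone. isotig45298, which led the developing root pattern, reached 718 in the root meristem, 124 in the apical meristem and 293 in emerging needles. isotig57271, which led the root pattern, had no reads in any of those 3 libraries.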

How the data were processed

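The deposited signal is a normalised read count for each of 23493 transcripts in 14 libraries. The submitters' processing notes name FastQC, BWA and edgeR, with no versions; the sources used here do not give the reference assembly or the filter on low transcripts. Values behaved as CPM in which a normalisation factor had rescaled each library size. Dividing each library by its smallest value above 0 gave whole numbers, within 0.001, for 100% of values, so whole reads were recovered. The factors equalled TMM factors from edgeR 4.0.16 to a relative 5.22e-10.

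Values are not counts, so the main test was limma 3.58.1 (R 4.3.3, mean trend) on log2(value + 5), root minus shoot, over transcripts at 10 or more in at least 2 of the 5 vascular libraries. limma draws the variance of each transcript toward a trend over all transcripts. That prior had 12.4 degrees of freedom, against 3 from the transcript itself. Fold changes on this scale understate low transcripts. The design had assumed plain CPM. edgeR and DESeq2 1.42.0 ran on the recovered reads as alternatives. Scripts were tested on simulated data. Named transcripts have the widest space between groups (lowest library of the high side minus highest of the low side): 2 called in each direction and 1 for each of 4 patterns. Gene lists and cell type markers were void, as identifiers carry no gene names. The members, lists and rules were chosen with earlier results of these data known.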

Additional observations from a re-analysis of the deposited data

Results flagged for a closer look

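Named transcripts were looked up in libraries outside the comparison of vascular tissues. isotig54681, which had no reads in any shoot vascular library, stood at 9.30 in the apical meristem (7 reads) and at 17.0 in emerging needles (24 reads), both of them shoot libraries. unigene134, also without reads in shoot vascular tissue, stood at 7.79 in emerging needles (11 reads). Each value lies above the limit of 3 reads and below both root vascular libraries.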

How the results depend on the processing

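The count of called transcripts depended on nearly every choice. Beside the 25 reported, it was 0 with 1 added before the logarithm (lowest limma adjusted p = 0.0531, 1252 at an unadjusted p under 0.05), 0 with young needle and hypocotyl vascular tissue averaged, 10 with edgeR, 14 with no mean trend, 15 with the filter in 3 libraries, 59 without the 10 most abundant transcripts, 83 with a robust prior, 84 with scaling to totals, 124 with quantile normalisation and 677 with DESeq2. It was 17 with 25 added and 22 with no filter or a filter at 25. With 1 library left out it ran from 0 to 523. The filter in 3 libraries removes transcripts found in 2 root libraries by its construction, and gave 0 higher and 15 lower. Of 65 values of the 4 named transcripts under alternatives, 43 kept the direction and the call, 22 kept the direction and lost the call, and 0 reversed. Without a root library isotig54681 and unigene134 did not pass the filter, and without the most abundant transcripts isotig00001 was not tested. The root set of 255 had 746 transcripts with 1 added, 61 with 25 added, 916 at 2 times and 77 at 8 times; the shoot set of 303 had 592, 66, 699 and 103 under the same choices. With 1 library left out the root set ran from 297 to 2539 and the shoot set from 432 to 931. Hypocotyl alone had 763 with 1 added and 33 with 25 added, and the 69 transcripts of root with hypocotyl 560 and 3. The mean correlation difference of 0.213 stayed between 0.109 and 0.383 under all alternatives run. No paired analysis was possible, because each organ belongs to a single side and each tissue was 1 library. The labels also give no replicate numbers. Depth sets the floor: 1 read is worth 1.42 in root and 0.766 in young needle vascular tissue.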
